A study of Mus musculus with 4 samples.

Results

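Interferon response and antigen presentation genes were followed in sorted kidney tubules of mice on a low or a high magnesium diet. The set held 34 genes grouped by function, 26 from the interferon response and 8 from antigen presentation, among 21713 genes with a named probe. A gene stood in the set through the platform's gene symbol, and its brightest probe stood for it. The list of genes used no measured value, although it was drawn up with earlier results of these arrays known, and for the 9 genes with several probes measured brightness chose the probe.

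All mice were B6D2F2 animals, an F2 of a cross in which littermates can differ in genotype, and carried a transgene with eGFP under the parvalbumin (PV) promoter. The promoter marks the distal convoluted tubule of the kidney, a nephron segment that takes back filtered magnesium, and it is also active in muscle. One group ate chow with 0.02% magnesium by weight and the other with 0.48%, each for 15 days, and the animals were aged 6 to 8 weeks at isolation. Each of the 8 RNA samples was a pool of 4000 sorted tubules, and the labels do not say how many mice gave them. A low-diet and a high-diet littermate shared each of the 4 arrays. The sample numbers in the labels name the pairs: H1/L1 and H7/L7, with the low-diet sample in Cy5, and H3/L2 and H8/L8, with the dyes swapped. Values of the pairs are given in order of the H number throughout.

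Interferons are secreted signals of infection. Type I interferon acts through a receptor and Janus kinases to assemble a factor, with Stat2 and Irf9 among its parts, that binds the interferon-stimulated response element (ISRE), and interferon gamma acts mainly at gamma-activated sites (GAS). Most cells that carry the receptors, kidney epithelium included, can respond with antiviral proteins and with more class I antigen presentation, in which B2m and a heavy chain display peptides that the Tap transporter has loaded. Class II presentation is the task of professional antigen-presenting cells, although tubule epithelium can take it up under interferon gamma.

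Stretches next to the start site are shown for the 5 genes that the results below turn on or contrast: Ifit3 and Ifitm3, which moved with diet, Ifit1 and Isg15, close relatives in function that did not pass the test, and B2m, which stood out in 1 sample. The first 4 lines are the 160 bases before the start site, and the Ifitm3 line is the first 30 bases of the transcript. The sequences are from RefSeq on GRCm38.p6, each 5′ to 3′ on the gene's own strand. They lie at chr19:34583369-34583528 (plus strand) for Ifit3, chr19:34640729-34640888 (plus) for Ifit1, chr4:156200819-156200978 (minus) for Isg15, chr2:122147527-122147686 (plus) for B2m and chr7:141010715-141010744 (minus) for Ifitm3. Capitals mark matches to the ISRE core GAAANNGAAA or its reverse complement TTTCNNTTTC, which can overlap.
Ifit3: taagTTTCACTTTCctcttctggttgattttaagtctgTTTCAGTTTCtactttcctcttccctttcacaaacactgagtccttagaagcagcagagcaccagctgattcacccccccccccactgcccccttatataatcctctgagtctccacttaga
Ifit1: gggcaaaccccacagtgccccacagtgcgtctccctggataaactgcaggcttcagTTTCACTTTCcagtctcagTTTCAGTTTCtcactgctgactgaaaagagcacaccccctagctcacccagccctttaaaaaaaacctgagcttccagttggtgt
Isg15: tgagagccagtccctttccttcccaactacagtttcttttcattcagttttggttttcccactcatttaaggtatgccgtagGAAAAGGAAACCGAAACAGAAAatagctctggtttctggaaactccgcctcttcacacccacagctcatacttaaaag
B2m: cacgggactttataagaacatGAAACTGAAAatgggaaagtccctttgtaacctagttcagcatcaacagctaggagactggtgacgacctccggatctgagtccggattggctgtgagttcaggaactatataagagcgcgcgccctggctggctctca
Ifitm3: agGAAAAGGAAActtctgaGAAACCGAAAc

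RefSeq windows from 250 bases before to 50 after the start site were found for 28 of the 34 genes, and not used here for Mx1, Mx2, Oas2, Usp18, Cd74 and Tap2. The ISRE core lay on either strand in the windows of 14 of these 28 genes (50%), against 3.99% of all 27025 genes with a window. The GAS letters TTCNNNGAA, which read the same on both strands, lay in those of 6 of 28 (21.4%), namely Bst2, Ifi35, Ifit2, Ifitm3, Irf1 and Oas1a, against 9.55% of all genes with a window. Ifit3 and Ifit1, neighbours on chromosome 19, held the same pair of ISRE core matches, TTTCACTTTC and TTTCAGTTTC, while their ratios to diet, given below, were -0.74 and 0.06. That difference was not tested. These matches describe letters in a window and not binding.

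Ratios are log2 of the low over the high diet, and values above 0 mean more transcript on little magnesium, opposite to the direction of the authors' deposited table. Each pair gave 1 ratio per gene, and a gene was called where limma's adjusted p, over 39429 probes, lay under 0.05. Of the 34 genes, 2 were called (5.88%), against 7.82% of all named genes. Ifitm3 was the 1 gene called higher, where 4.88% of all genes were, and Ifit3 the 1 called lower, where 2.95% were. A share so near that of all genes is no result about the set. The members not called numbered 32, with adjusted p-values from 0.0531 to 0.995, and 6 of the 34 (17.6%) had an unadjusted p under 0.05, against 26.7% of all named genes. The ratio of 22 genes lay within 0.1 of 0, as did that of 14993 of all 21713. A median of 0.025 over the 34 stood beside one of 0.0017 over all genes. Since the samples were bulk RNA, fewer cells of a type and less RNA per cell cannot be told apart in any of these ratios.

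Signal above background was seen in all 8 samples for 27 of the 34 genes (79.4%), against 74.1% of all named genes, and none of the 34 was saturated. The 7 others were Irf7, Ifit1, Ifit2, Mx1, Oas1a, Oasl1 and Tap1, each above background in 2 or more samples of either diet. Across all probes the share above background ran from 65.5% to 97.4% of probes in low-diet samples and from 85.1% to 96.2% in high-diet samples, higher in Cy5 than in Cy3 on each array. The background correction adds a constant to each spot, which draws ratios toward 0, most of all those of dim genes. Of the segment markers, Slc12a3 (the salt transporter of the distal convoluted tubule) and Pvalb itself were above background in all 8 samples. So were Umod of the thick limb, Slc34a1 of the proximal tubule and Aqp2 of the collecting duct, so the sorted tubules were not free of other segments' transcripts.

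**Figure D1:**
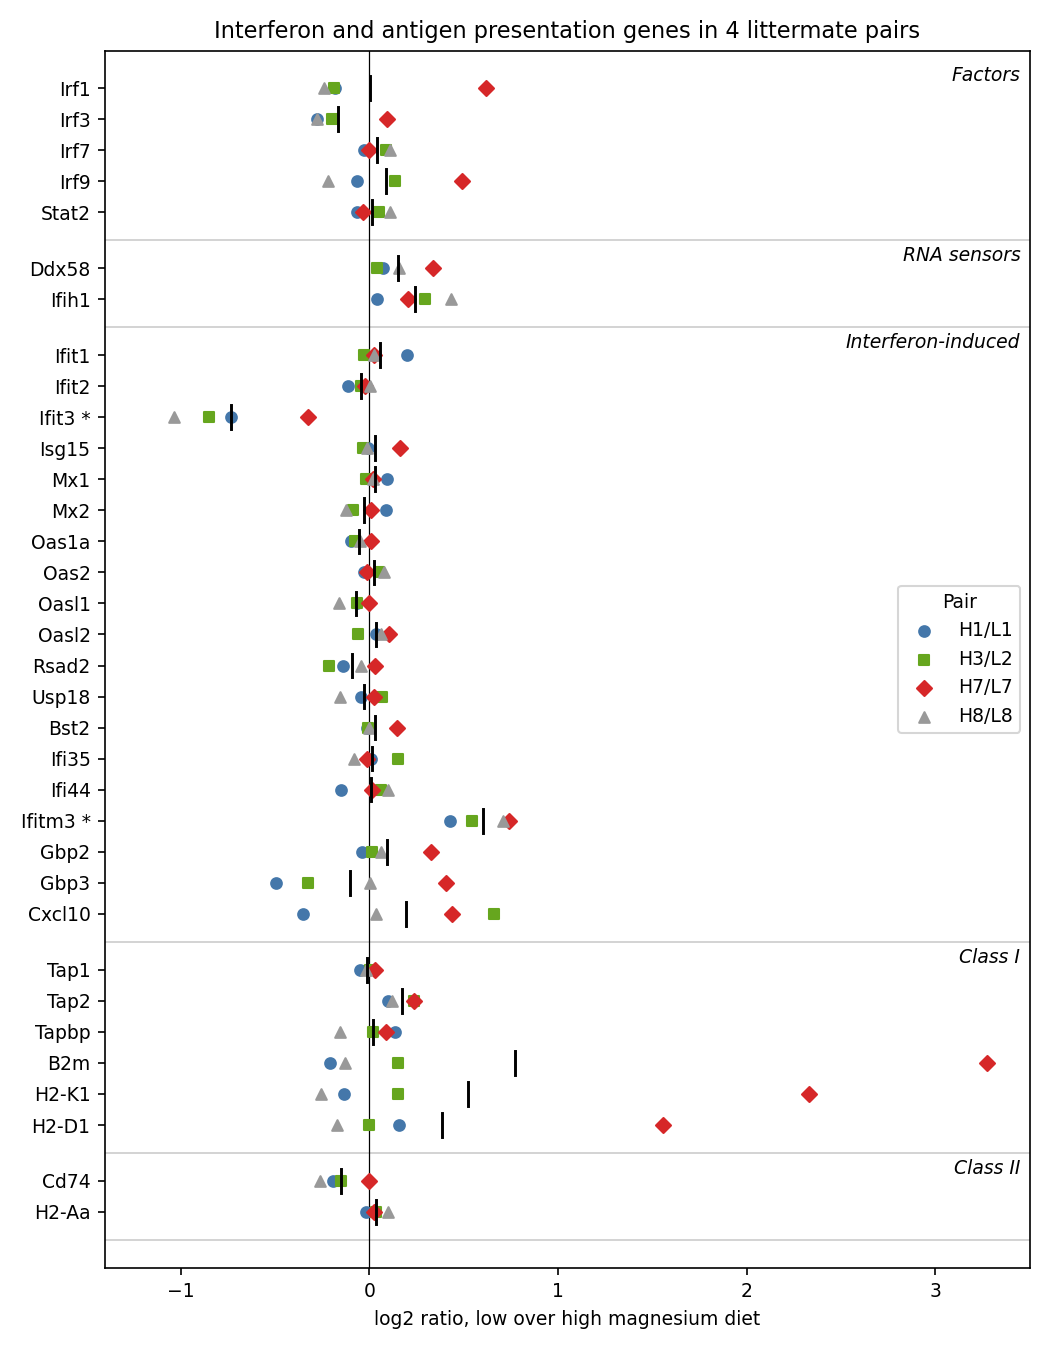
Each row is 1 of the 34 genes, by role. The horizontal axis is the log2 ratio of low over high magnesium diet, points are the 4 littermate pairs, black ticks their mean, and an asterisk marks the 2 genes called. Most points lie within 0.3 of 0, Ifit3 lies to the left and Ifitm3 to the right in each pair, and B2m, H2-K1 and H2-D1 have 1 far point, that of H7/L7.

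Values of the transcription factors are given first. Irf3, which sensors of viral RNA switch on, had ratios of -0.28, -0.20, 0.10 and -0.28, with a mean of -0.17 ± 0.18 (SD, n = 4; adjusted p = 0.263). Irf7, which amplifies type I interferon production, had a mean of 0.04 ± 0.07, and Stat2 of 0.02 ± 0.08. The 95% interval of Stat2 ran from -0.06 to 0.09. Irf1, a factor induced by interferon gamma, had ratios of -0.18, -0.19, 0.62 and -0.24. Irf9, the DNA-binding part of the type I factor, had ratios of -0.06, 0.14, 0.49 and -0.22. In both, H7/L7 alone was far above the rest, and the sample behind it was L7: Irf1 had a log2 brightness of 8.73 in L7 and of 7.62 to 7.81 in the other low-diet samples. A second, dimmer Irf1 probe gave -0.03 in H7/L7, so the 2 probes of Irf1 differed there. None of the 5 factors was called, and 0 had an unadjusted p under 0.05 by limma.

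Both cytosolic RNA sensors had a positive ratio in each pair. Ifih1, which encodes the long double-stranded RNA sensor MDA5, had ratios of 0.04, 0.29, 0.21 and 0.43, with a mean of 0.24 ± 0.17 (SD, n = 4; 95% interval 0.13 to 0.36). Its adjusted p of 0.0531 missed the threshold, and it passed in 4 of 12 alternative settings. The log2 brightness of Ifih1 ran from 8.29 to 8.59 in low-diet and from 8.00 to 8.39 in high-diet samples, which overlap. Its second probe, dimmer, had a mean of 0.12 (adjusted p = 0.344). Ddx58, which encodes RIG-I, the sensor of short RNA ends, had a mean of 0.15 ± 0.13 (adjusted p = 0.202) and a second probe at 0.07 (adjusted p = 0.287).

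Ifit3 fell on the low diet. Its product joins the Ifit complexes that bind foreign RNA. Log2 brightness was 7.11, 7.18, 7.49 and 7.07 in L1, L2, L7 and L8, and 7.84, 8.02, 7.81 and 8.11 in H1, H3, H7 and H8. Each low-diet sample lay below each high-diet sample, and L7 and H7 were closest together. The ratios were -0.73, -0.85, -0.32 and -1.04, with a mean of -0.74 ± 0.30 (SD, n = 4; 1.66-fold lower; 95% interval -0.94 to -0.53; adjusted p = 0.0206). The call was lost without H1/L1 (adjusted p = 0.0535), without H3/L2 (0.0575), without H8/L8 (0.0787) and without the dye term (0.0506), and the ratio stayed between -1.18 and -0.63 in 12 of 12 alternatives. The authors' deposited table lists Ifit3 at a log2 ratio of 0.906 in its own direction, high over low, with p = 0.0024, the 1 gene of the 34 under 0.05 there.

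Ifit3b, a near-identical neighbour of Ifit3 that was listed among other interferon-induced genes, was also lower on the low diet. Its brightest probe had ratios of -0.48, -0.77, -0.24 and -0.75, with a mean of -0.56 ± 0.25 (SD, n = 4; adjusted p = 0.0162), and its second probe had -1.62, -0.89, -0.33 and -0.86 (adjusted p = 0.0869). Probes for the pair may cross-hybridise, so which of both transcripts changed is uncertain. The next genes of the same cluster were not called. Ifit1 had ratios of 0.20, -0.03, 0.02 and 0.03 with a mean of 0.06 ± 0.10 (95% interval -0.05 to 0.16), and Ifit2 had a mean of -0.05 ± 0.05. Both were dim, above background in 6 and 7 of 8 samples, so their ratios were the more compressed.

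Ifitm3 rose on the low diet. It encodes a membrane protein that blocks the entry of viruses from endosomes. Log2 brightness was 8.25, 8.41, 8.77 and 8.46 in L1, L2, L7 and L8, and 7.83, 7.87, 8.03 and 7.75 in H1, H3, H7 and H8. Each low-diet sample lay above each high-diet sample. The ratios were 0.43, 0.55, 0.74 and 0.71, with a mean of 0.60 ± 0.15 (SD, n = 4; 1.52-fold; 95% interval 0.44 to 0.77; adjusted p = 0.0203). The call was lost without any 1 of the 4 pairs (adjusted p from 0.0502 to 0.0767) and with plain background subtraction (0.0655), while the ratio stayed between 0.53 and 0.85. The authors' deposited table lists Ifitm3 at -0.717, high over low, with p = 0.682.

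Ifitm2, a paralog of Ifitm3 in sequence and place, had 4 probes that differed. The brightest had ratios of 0.35, 0.04, 0.32 and -0.02, with a mean of 0.17 ± 0.19 (adjusted p = 0.0428), and another had 0.21 ± 0.19 (adjusted p = 0.0309). The dimmer probes of Ifitm2 had means of -0.15 and 0.09, neither called. High values stood in H1/L1 and H7/L7, where the low-diet sample was in Cy5, and values near 0 in the other orientation. Cross-hybridisation between the paralogs was not tested.

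Some markers of cell types shifted between the diets beside both called genes. Of 8 markers of the distal convoluted tubule 4 were called higher on the low diet (Pvalb, Calb1, Trpm6 and Wnk1). The rest of that list, Slc12a3 included, was not called. Of 5 markers of the thick limb 2 were called higher, and of 10 proximal tubule markers 2 were called lower. Among all named genes 4.88% were called higher and 2.95% lower. Summed over its list, linear brightness of distal convoluted tubule markers ran from 43390 to 48670 in low-diet and from 14978 to 21805 in high-diet samples. Such a sum weighs the brightest markers most. The ratios of these 8 markers ran from -0.18 to 2.27, with a median of 0.40 and pair medians of 0.74, 0.29, 0.52 and 0.11. The sum of proximal markers ran from 3614 to 4825 in low-diet and from 4550 to 11244 in high-diet samples. The median ratio of the proximal markers was -1.16, -0.94, -0.17 and -0.29 in the 4 pairs. The part of these shifts in the ratios of Ifit3 and Ifitm3 was not tested.

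The other 17 interferon-induced genes were not called, with means from -0.10 to 0.20. Isg15, a ubiquitin-like modifier and one of the most strongly induced genes of the response, had ratios of -0.01, -0.03, 0.16 and -0.01, with a mean of 0.03 ± 0.09 (95% interval -0.07 to 0.13). Usp18, the protease that removes Isg15, had a mean of -0.03 ± 0.10. The GTPases Mx1 and Mx2 had means of 0.03 ± 0.05 and -0.03 ± 0.10. The oligoadenylate synthetases, which activate RNase L, stayed as close: Oas1a at -0.05 ± 0.05, Oas2 at 0.02 ± 0.05, Oasl1 at -0.07 ± 0.06 and Oasl2 at 0.04 ± 0.07. Rsad2, the antiviral enzyme viperin, had a mean of -0.09 ± 0.11, Bst2, the virus tether, of 0.03 ± 0.08, Ifi35 of 0.02 ± 0.10 and Ifi44 of 0.01 ± 0.11. Oas1a has close paralogs whose transcripts its probe may also bind.

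Gbp2, Gbp3 and Cxcl10 varied more between pairs than the genes above. Gbp2 and Gbp3 encode guanylate-binding proteins, which attack the vacuoles of intracellular pathogens. Gbp3 had ratios of -0.49, -0.33, 0.41 and 0.01, and Gbp2 had ratios of -0.04, 0.01, 0.33 and 0.06. Cxcl10, a chemokine that draws T cells, had ratios of -0.35, 0.66, 0.44 and 0.04 by its brightest probe, and 0.10, 0.03, 0.01 and 0.00 by a dimmer probe. In all 3 genes L7 was the brightest of the 8 samples and H7 the brightest high-diet sample. Log2 brightness of Cxcl10 was 8.07 in L7 and 7.63 in H7, against 6.78 to 7.45 in the other 6 samples, that of Gbp2 7.75 and 7.42 against 7.06 to 7.13, and that of Gbp3 8.03 and 7.62 against 6.76 to 7.45. For brightness, the average intensities of the arrays were brought to a common distribution. Levels on different arrays remain a rougher comparison than ratios within one.

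Class I antigen presentation held the widest spread of the set. B2m, the light chain of each class I molecule, had ratios of -0.21, 0.15, 3.27 and -0.13. Its log2 brightness was 13.9 in L7 and between 10.6 and 11.3 in the other 7 samples. The H7/L7 ratio is 9.67-fold, and it was the second highest of all 21713 genes in that pair. H2-K1, a class I heavy chain, had ratios of -0.13, 0.15, 2.33 and -0.26, with a brightness of 13.5 in L7 and of 11.1 to 11.5 elsewhere. The other 3 probes of H2-K1 had 1.10, 0.89 and 0.43 in H7/L7, so each of its 4 probes was high there. H2-D1, another class I heavy chain, had ratios of 0.15, -0.00, 1.55 and -0.17, with 10.9 in L7 and 9.07 to 9.39 elsewhere. Class I heavy chain genes are alike in sequence and vary between strains, so the probes may bind more than 1 of them, and the labels do not give the alleles that each mouse carried.

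The diet comparison called none of these genes. B2m had a mean of 0.77 ± 1.67 (adjusted p = 0.535), H2-K1 of 0.52 ± 1.22 (adjusted p = 0.561) and H2-D1 of 0.38 ± 0.79 (adjusted p = 0.443), each SD over 4 pairs and larger than its mean. Without H7/L7 the means fitted were -0.10, -0.09 and 0.03. Without H1/L1, H7/L7 was left as the only array of its dye orientation, and B2m then reached 1.64 with an adjusted p of 0.0464, under the assumption that this lone array varied like the others. In these 3 genes, as processed here, 1 sample decided the value.

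**Figure D2:**
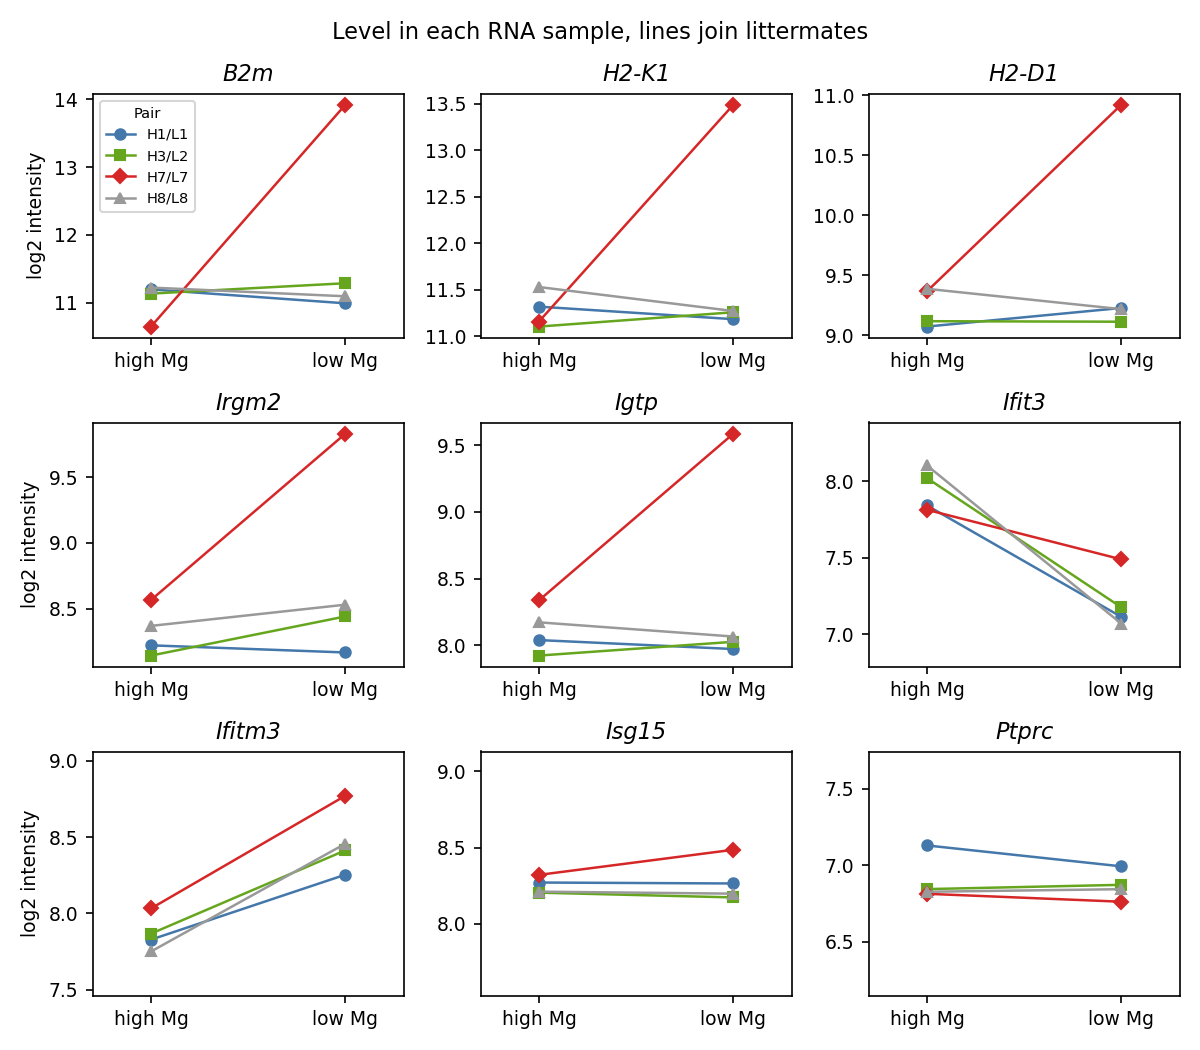
Log2 brightness in each of the 8 RNA samples, high diet on the left and low diet on the right of each panel, with a line joining littermates on 1 array; each panel has its own vertical range. In B2m, H2-K1, H2-D1, Irgm2 and Igtp the red diamond of L7 lies above the other 7 samples, Ifit3 falls and Ifitm3 rises in each pair, and Isg15 and Ptprc (a leukocyte marker) stay nearly level.

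The genes that load class I molecules had H7/L7 ratios of 0.24 or less as processed here. Tap1 and Tap2 form the peptide transporter, and Tapbp encodes tapasin, which bridges it to class I molecules. Tap2 had ratios of 0.10, 0.24, 0.24 and 0.12, with a mean of 0.17 ± 0.07 (SD, n = 4; 95% interval 0.07 to 0.28; adjusted p = 0.0854). Tap1 had a mean of -0.01 ± 0.03 and was dim, above background in 2 of 4 low-diet samples. Tapbp had ratios of 0.13, 0.02, 0.09 and -0.16. With plain background subtraction the H7/L7 ratios were larger, at 0.53 for Tap1, 0.40 for Tap2 and 0.28 for Tapbp. L7 was the brightest sample in Tap1 and Tap2, though not in Tapbp. Class I as a whole had a median ratio of 0.02, 0.09, 0.90 and -0.14 in the 4 pairs, with 0 of 6 genes called by limma and 1 with an unadjusted p under 0.05.

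No class II gene of the set was called. Cd74, the invariant chain that guards the class II groove, had ratios of -0.19, -0.15, -0.00 and -0.26, with a mean of -0.15 ± 0.11 (adjusted p = 0.143). H2-Aa, a class II alpha chain, had a mean of 0.04 ± 0.05. H2-Ab1, the matching beta chain and no member of the set, had ratios of -0.26, -0.43, 0.20 and -0.37 (adjusted p = 0.224) by its brightest probe, and -0.36, -0.54, 0.28 and -0.44 by its second. H2-Eb1, picked out after its values were seen, had -0.55, -0.61, 0.41 and -0.47 (adjusted p = 0.377). In both beta chain genes H7/L7 was the pair that went the other way. Of 14 further class II genes 0 were called by limma and 6 had an unadjusted p under 0.05, a threshold that 26.7% of all named genes passed.

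Interferon response and antigen presentation genes were compared as groups by their medians. The 26 interferon genes had a median ratio of 0.02, with pair medians of -0.04, -0.01, 0.03 and 0.00, and 2 called (7.69%). Antigen presentation had a median over its 8 genes of 0.11, with pair medians of -0.03, 0.03, 0.16 and -0.14, and 0 called, with 2 at an unadjusted p under 0.05. The antigen presentation median was positive in H3/L2 and H7/L7 and negative in the other pairs, and without H7/L7 it was -0.0017. The medians of the 2 groups thus differed by less than the spread of pair medians within antigen presentation.

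The pair H7/L7 had the highest ratio of the 4 pairs in 19 of the 34 genes (55.9%), against 20.0% of all named genes. L7 was the brightest of the 8 samples in 20 of the 34 (58.8%), against 10.8% of all named genes. A stricter pattern, set after values were seen, asked for a ratio of 1 or more in H7/L7 and of 0.3 or less in size in the other 3 pairs. It was met by 6 of 21713 genes (0.0276%): B2m, H2-K1, H2-D1, Irgm2, Igtp and Pkp4. Irgm2 and Igtp encode immunity-related GTPases that interferon gamma induces, and Pkp4 encodes a junction protein of the plakophilin family. Irgm2 had a ratio of 1.26 in H7/L7 (2.40-fold) and Igtp of 1.25 (2.38-fold). The 3 members among the 6 were those whose values had drawn attention to the pattern.

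Further genes, also singled out after their values were seen, were high in H7/L7. H2-Q7, a class I gene beside H2-D1, had ratios of 0.12, -0.43, 1.12 and -0.07. Irgm1, another immunity-related GTPase, had 0.21, 0.20, 0.92 and 0.38, Ifi47 had 0.19, -0.31, 0.70 and -0.27, and Gbp4 had 0.11, -0.08, 0.53 and -0.10. None of them was called for diet, with adjusted p-values from 0.138 to 0.704.

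Markers of leukocytes, which carry much of the body's class I and class II protein, were read beside the values of L7. Of the 21 measured, 0 were called for diet by limma and 2 had an unadjusted p under 0.05, and their H7/L7 ratios ran from -0.15 to 0.27. Only 11 of them were above background in all 8 samples. Ratios of dim markers are compressed, so a small change in leukocyte transcripts was not detectable by them. Ptprc, the pan-leukocyte marker CD45, had ratios of -0.14, 0.03, -0.05 and 0.02 and a log2 brightness of 6.76 in L7, the lowest of the 8 samples. The summed linear brightness of the leukocyte list was 7377 in L7, the highest of the 8 samples, and ran down to 5854 in the other low-diet samples and from 6341 to 7247 in high-diet samples. Csf1r, a macrophage receptor, had probes that disagreed, with means of -0.21 (adjusted p = 0.121) for the brightest and 0.61 (adjusted p = 0.0279) for another, and its H7/L7 ratio was -0.15 and 0.71 on these. Pecam1, an endothelial marker, had an H7/L7 ratio of 0.03. The part of other cells in the class I values of L7 was not tested further.

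**Figure D3:**
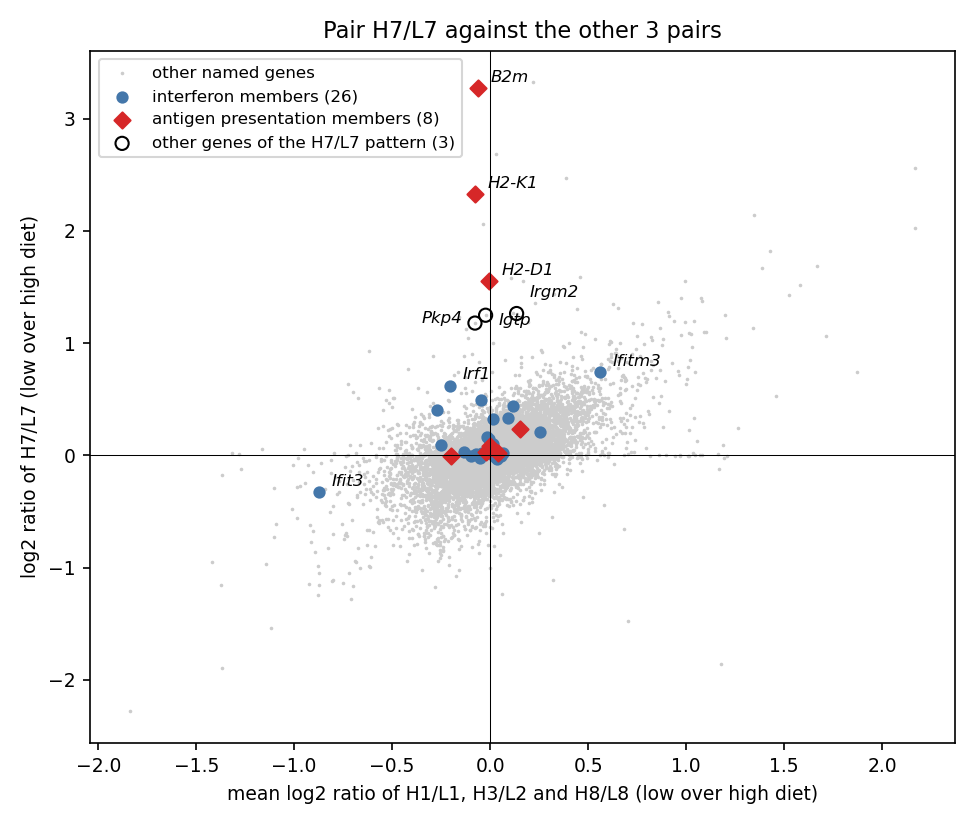
Each point is a gene by its brightest probe. The horizontal axis is the mean log2 ratio, low over high diet, of H1/L1, H3/L2 and H8/L8, and the vertical axis is the ratio of H7/L7; blue circles are the 26 interferon members, red diamonds the 8 antigen presentation members, and open circles the 3 other genes of the H7/L7 pattern. B2m (3.27), H2-K1 (2.33) and H2-D1 (1.55) lie high on the vertical axis near 0 on the horizontal, while Ifitm3 and Ifit3 lie to the right and left.

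The rest of the pathway was read from lists beside the set. Of 120 measured genes 8 were called higher and 3 lower (9.17%, against 7.82% of all named genes), and their median ratio was 0.01. Among receptors, kinases and regulators 0 of 15 were called, with 2 at an unadjusted p under 0.05 by limma. Ifnar1 and Ifnar2, the receptor chains for type I interferon, had means of 0.01 ± 0.03 and 0.09 ± 0.23, and Ifngr1, of the interferon gamma receptor, of 0.05 ± 0.12. Jak1, the kinase both receptors share, had ratios of 0.28, 0.10, 0.41 and -0.01 (mean 0.19 ± 0.19; adjusted p = 0.0645). Of 8 interferon genes themselves 0 were called, with 1 at an unadjusted p under 0.05.

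The list for sensing of nucleic acids, on which Nlrc5 also stood, gave 3 called higher and 1 lower among 16 genes. Of all named genes 4.88% were called higher and 2.95% lower, and the list was not tested as a set. Mavs, the mitochondrial adaptor through which MDA5 and RIG-I signal, rose by 0.46 ± 0.26 (SD, n = 4; adjusted p = 0.0327), with ratios of 0.11, 0.58, 0.45 and 0.71. Tlr3, the endosomal sensor of double-stranded RNA, rose by 0.27 ± 0.17 (adjusted p = 0.0309). Zbp1, a sensor of left-handed nucleic acids, rose by 0.18 ± 0.06 (adjusted p = 0.0497), with a second probe at 0.09 that was not called. Nlrc5, the activator of class I genes, fell, at -0.25 ± 0.15 (adjusted p = 0.0484), while its dimmer probe had ratios of -0.40, -0.09, 0.18 and -0.04. In Mavs, Tlr3 and Ifih1, H8/L8 had the highest ratio of the 4 pairs.

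Other interferon-induced genes gave 3 higher and 2 lower among 51, beside 4.88% and 2.95% of all named genes. Parp9, which pairs with the ubiquitin ligase Dtx3l, rose by 0.28 ± 0.03 (adjusted p = 0.0182), with a dimmer probe at -0.05 that was not called. Parp12, an ADP-ribosyltransferase, rose by 0.22 ± 0.10 (adjusted p = 0.0397), and Ifitm2 is given above. Besides Ifit3b, Sp100, a nuclear body protein, fell, at -0.24 ± 0.16 (adjusted p = 0.0480), with a second probe at -0.15 that was not called. Each called change here was smaller than that of Ifit3 and Ifitm3.

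Class I partners gave 2 higher and 0 lower among 16, beside 4.88% and 2.95% of all named genes. This list was without Nlrc5, which is given above. Psmb10, a catalytic subunit of the immunoproteasome, rose by 0.26 ± 0.12 (SD, n = 4; adjusted p = 0.0224), with ratios of 0.16, 0.32, 0.16 and 0.39. Its partners Psmb8 and Psmb9, which interferon induces with it, had means of 0.05 ± 0.07 and 0.08 ± 0.12 and were not called. Canx, the chaperone calnexin, which also serves many other glycoproteins, rose by 0.34 ± 0.27 (adjusted p = 0.0398). Ciita, the activator of class II genes, had ratios of 0.61, -0.21, -0.06 and -0.33 by its brightest probe and means of -0.06 and 0.02 by the other probes.

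Dye effects were read from the same fit. No member had an adjusted p under 0.05 for the dye term in limma, the lowest being 0.285, and 2 had an unadjusted p under 0.05, Ifih1 and Ifit3. Of the 34 genes 9 had more than 1 probe, and of the 11 further probes 0 were called and 1, that of Irf1, had an unadjusted p under 0.05.

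How far the background correction and scaling set these values is shown for 4 genes. The ratio of B2m in H7/L7 was 3.44 with plain subtraction, 3.39 without background correction, 3.97 with median centring and 2.68 in the authors' processed values, and it was the highest of the 4 pairs under each. In the authors' processed values the other pairs of B2m were wider apart, at -1.04, 0.84 and 0.67. H2-K1 had -0.76, 0.68, 1.88 and 0.35 there, and H2-D1 had -0.40, 0.41, 1.22 and 0.33. In those values these 3 genes thus exceeded the limit of 0.3 that the stricter pattern set for the other pairs.

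**Figure D4:**
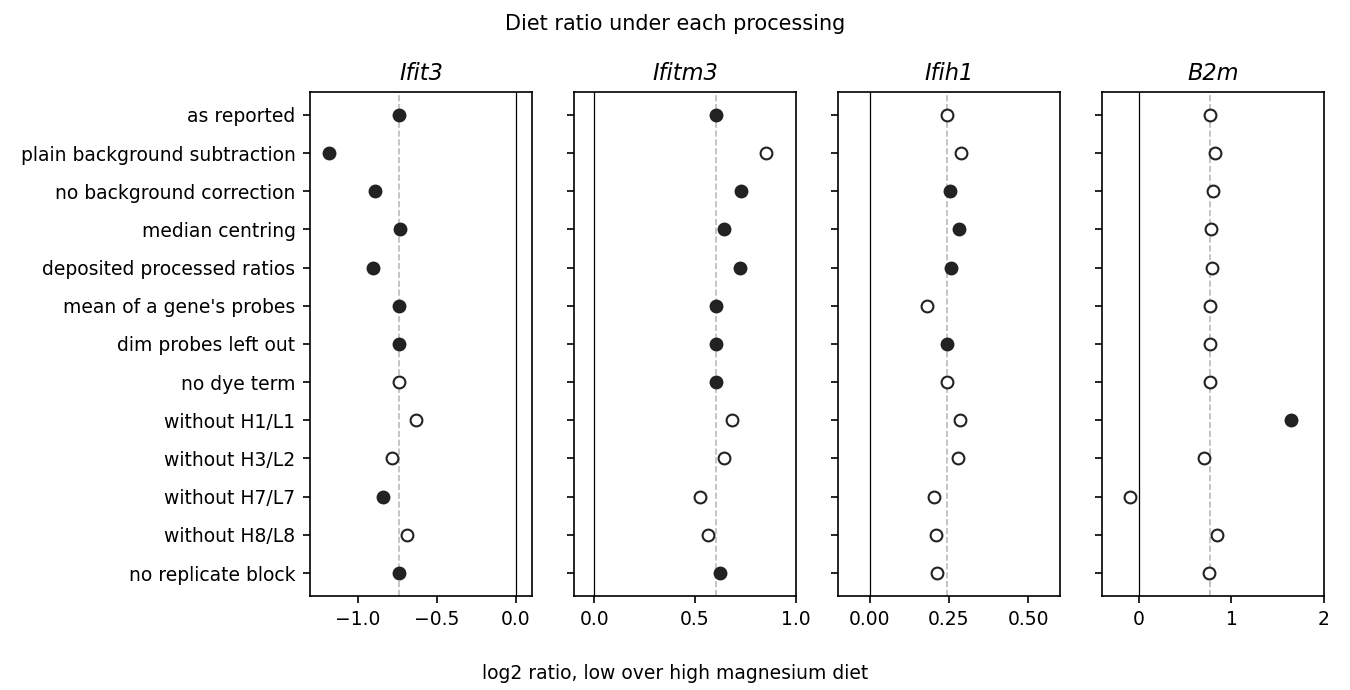
Fitted log2 ratio of low over high diet (horizontal axis, a separate range per panel) for Ifit3, Ifitm3, Ifih1 and B2m as reported and under 12 alternatives; filled circles are called at an adjusted p under 0.05, and the dashed line is the reported value. Ifit3 stays below 0 and Ifitm3 and Ifih1 above it throughout, while B2m lies at -0.10 without H7/L7 and at 1.64 without H1/L1.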

How the data were processed

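Sorted tubule RNA of 8 samples was measured on 4 two-colour mouse arrays. The deposited scans hold intensity per spot as mean pixel brightness with local background, per the file headers, with no correction made. The authors' processed values are log2 ratios of channel 1 over channel 2. Their scale and direction were found against each array's scan (correlation 0.745 to 0.851), the column medians in order of the H number were 0.0041, -0.0038, -0.0035 and 0.0047, and no source used here states how they were normalized. The authors also deposited maanova output, per the file headers, with a p-value for each probe beside its mean log2 ratio. The p-value was exactly 1 for 32 of the 34 genes, and no source used here says whether it was adjusted. Channel 1 was taken as Cy5, which the labels list first.

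Scan signals were corrected with normexp (offset 50), normalized by loess within arrays with 5791 control spots at weight 0, turned to low over high diet and fitted across 39429 probes with limma 3.58.1 in R 4.3.3, with terms for diet and dye (2 residual and 2.68 prior degrees of freedom), 2-sided, with Benjamini-Hochberg adjustment. The SD printed is over the 4 turned ratios and includes the dye effect that the fit removes. Brightness per sample came from the same correction and loess, followed by quantile normalization of the average intensities between arrays. The ratios fitted did not have this last step. P-values refer to the spread between these 4 pairs. A signal counted as above background where it passed the 99th percentile of 604 dim control spots, and a median of 65000 or more as saturated. The number of arrays limits the precision. The steps were tested on simulated data.

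Symbols came from the platform annotation (32431 probes with 1, 0 with several, 6998 with none), of which 2622 were updated through RefSeq's GRCm38.p6 table. The files name no build, so coordinates are given for RefSeq sequences alone. Members and lists were chosen with earlier results of these data known. Named were all members, their further probes, 11 fixed pathway genes, 7 fixed markers and called genes of the pathway lists, at most 8 in each direction. The design text pairs littermates on an array, so the array was the pair. The deviations of array partners from their diet's mean correlated at 0.195 to 0.528, which shared hybridisation may raise. Alternatives varied background correction, scaling, values, probe choice, a filter on dim probes (above background in both channels on 3 or more arrays), the dye term, the pairing and the pairs included.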

Additional observations from a re-analysis of the deposited data

Results flagged for a closer look

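In 5 of the 34 genes the ratio of H7/L7 lay so far from the other 3 that the gap exceeded the 95% limit of Dixon's test for 4 values, which chance passes in about 1 in 20 groups. Of these 5, each stood apart in H7/L7 and on its upper side. B2m had a log2 ratio of 3.27 there, against -0.21 to 0.15 in the other pairs, and H2-K1 had 2.33, against -0.26 to 0.15. Irf1 had 0.621, against -0.24 to -0.18. Isg15 had 0.165, against -0.03 to -0.01, and Bst2 had 0.144, against -0.01 to -0.00, which are small values beside tighter pairs. The 34 genes share each sample, so these 5 are not separate observations. Dixon's test was not run over all named genes, so no share of them stands beside this count. In H7/L7 the dimmer probes of Irf1 and Isg15 gave -0.03 and 0.005, and the other 3 probes of H2-K1 gave 1.10, 0.89 and 0.43.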

How the results depend on the processing

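Of 404 values of single members over 12 alternatives, 366 kept direction and call, 9 lost a call, 5 gained one and 24 changed sign, none of the 24 with a call and the largest 0.198 in size. The cause of these changes was not tested. Without a replicate block, with the 8 samples no longer paired, Ifit3 was at -0.74 (adjusted p = 0.0097) and Ifitm3 at 0.62 (0.0406). The calls among members were 1 higher and 1 lower as before. This setting also replaced loess within arrays by quantile normalization of the 8 channels, so it does not show the effect of the pairing alone. Members called higher, 1 as reported, came to 0 with plain background subtraction and to 2, with Ifih1 added, without background correction (adjusted p = 0.0444), with median centring (0.0422), with the authors' processed ratios (0.0371) and with dim probes left out (0.0489), which keeps fewer probes. Members called lower, 1 as reported, came to 0 without the dye term. Leaving out 1 pair gave 0 to 1 higher and 0 to 1 lower. The 1 higher was B2m, without H1/L1, and the 1 lower was Ifit3, without H7/L7, while Ifitm3 was called in none of these fits. All named genes called fell from 1699 to between 69 (without H1/L1) and 615 (without H3/L2). The count over all genes was 710 with plain subtraction, 597 without the block and 651 without the dye term.

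Sign changes by setting were Irf7 at -0.0161, Stat2 at -0.0012 and Tap1 at 0.0927 with plain subtraction, Tap1 at 0.0170 with median centring, Irf1 at -0.0529 as a mean of its probes, and Stat2 at -0.0046, Gbp3 at 0.0103 and Tap1 at 0.0159 without the replicate block. With 1 pair left out, the ranges that crossed 0 were -0.097 to 1.64 for B2m, -0.0933 to 1.14 for H2-K1, -0.198 to 0.203 for Irf1, -0.0521 to 0.226 for Irf9, -0.328 to 0.123 for Gbp3, -0.0013 to 0.394 for Cxcl10, -0.0142 to 0.0712 for Isg15, -0.0072 to 0.0705 for Bst2, -0.0421 to 0.0738 for Ifi35, -0.0341 to 0.0483 for Ifi44, -0.0297 to 0.0100 for Tap1, -0.0236 to 0.0639 for Tapbp and -0.0836 to 0.0286 for Usp18. Medians of the groups moved by less than their spread between pairs. Dim genes such as Mx1, Tap1 and Oasl1 have compressed ratios, so a small change in them was not detectable here.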
